A study of Mus musculus with 14 samples.

Results

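The receptors for the constant part of IgG and their signal chain were followed in mouse brain through 7 genes of the 43346 in the table: Fcgr1, Fcgr3, Fcgr4, Fcgr2b, Fcer1g, Syk and Fcrls. They were chosen by name, with no measured value in the rule but with earlier results of these data known. Each name matched 1 row of the table.

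RNA was sequenced from the brains of 14 female mice aged 23 months, of strain C57BL/6;SJL-Tg by the labels, taken from cross-sections holding hippocampus and cortex. The NTG group (mice 7 to 10, n = 4) was labelled wild type and non-transgenic and, according to the labels' treatment text, drank water with the vehicle PEG from 9 months of age. The APP/PS1 group (mice 16 to 20, n = 5) was labelled APP/PS1 +/+ and drank the same vehicle, and the APP/PS1+CP2 group (mice 21 to 25, n = 5) had the same genotype and received CP2, a tricyclic pyrone that inhibits mitochondrial complex I, at 25 mg/kg/day in PEG water from 9 months of age. APP/PS1 mice carry human APP and presenilin 1 transgenes with familial Alzheimer's disease mutations, their NTG littermates carry neither, and the promoters of the transgenes are not given in the sources used here. NTG mice given CP2 were not analysed here.

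Immunoglobulin G on a target is read by receptors on phagocytes, in the brain mainly microglia and the macrophages of its borders. The activating receptors of the mouse, FcγRI (Fcgr1), FcγRIII (Fcgr3) and FcγRIV (Fcgr4), bind IgG but signal through the common γ chain (Fcer1g), whose immunoreceptor tyrosine-based activation motif (ITAM) is phosphorylated by Src-family kinases and then docks the kinase Syk. FcγRIIB (Fcgr2b) is the inhibitory receptor of the family, carries an inhibitory motif of its own and recruits the phosphatase SHIP-1, while Fcrls encodes an Fc receptor-like protein known mostly as a microglial marker.

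Of the 7 genes, 4 lie within 275.7 kb of chromosome 1 (mm10). Fcgr2b spans 170958617 to 170976547 on the minus strand, Fcgr4 171018920 to 171029761 on the plus strand, Fcgr3 171051174 to 171064935 on the minus strand and Fcer1g 171229572 to 171234365 on the minus strand. Fcrls (87250758 to 87263738) and Fcgr1 (96282909 to 96293969) are minus-strand genes of chromosome 3, and Syk (52583173 to 52648792) is a plus-strand gene of chromosome 13. All 7 are annotated as protein-coding and had the same start and end in GENCODE M21 of the same build.

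RefSeq promoters (GRCm38.p6, 250 bases before to 50 after the start site) were found for all 7 genes, 9 promoters in all. They were searched on both strands for the letters GAGGAAGT, read by the myeloid factor PU.1, for TTCNNNGAA, the GAS element, and for TTCNNTTTC, the interferon-stimulated response element (ISRE). These letters occurred in 3.2%, 8.3% and 8.56% of 32851 promoters of the same length. A shorter PU.1 form, AGGAAGT, which is contained in the longer one and was added after the promoters had been read, occurred in 9.35%. The 3 promoters that held any of these letters are shown, each 5′ to 3′ in the direction of its gene with the matches in capitals: Fcgr1 (chr3:96293920-96294219, minus strand), Fcgr4 (chr1:171018676-171018975, plus strand) and Fcrls (chr3:87263475-87263774, minus strand).
Fcgr1: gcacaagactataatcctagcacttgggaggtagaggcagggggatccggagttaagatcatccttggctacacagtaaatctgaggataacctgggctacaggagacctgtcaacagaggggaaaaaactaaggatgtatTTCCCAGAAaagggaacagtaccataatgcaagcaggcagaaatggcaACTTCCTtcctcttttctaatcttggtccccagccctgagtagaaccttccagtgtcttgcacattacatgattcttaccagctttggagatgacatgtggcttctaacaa
Fcgr4: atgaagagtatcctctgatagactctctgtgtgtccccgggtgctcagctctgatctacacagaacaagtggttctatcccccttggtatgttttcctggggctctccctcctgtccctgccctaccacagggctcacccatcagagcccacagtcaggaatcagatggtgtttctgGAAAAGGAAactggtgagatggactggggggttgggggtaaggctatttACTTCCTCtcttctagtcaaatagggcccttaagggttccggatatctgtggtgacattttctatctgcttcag
Fcrls: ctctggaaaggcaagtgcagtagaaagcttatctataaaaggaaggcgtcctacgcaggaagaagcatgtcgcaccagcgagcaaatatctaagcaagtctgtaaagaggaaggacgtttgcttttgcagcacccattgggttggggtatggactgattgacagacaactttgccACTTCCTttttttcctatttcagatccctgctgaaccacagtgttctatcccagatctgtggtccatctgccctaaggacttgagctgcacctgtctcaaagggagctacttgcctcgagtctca

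The capitals in Fcgr1 mark a GAS match whose leftmost base lay 109 bases before the start site (-109) and a short PU.1 match at -61. In Fcgr4 they mark an ISRE match at -73 and a match of both PU.1 forms at -24, and in Fcrls a short PU.1 match at -75. None of these letters occurred in the listed promoters of Fcgr3, Fcgr2b, Fcer1g or Syk. The matches describe letters in these windows and say nothing of binding.

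Total counts per mouse ranged from 70548781 to 106235625. Counts were scaled to library size (CPM), and a gene was tested if any group under comparison had all its mice above 1 CPM, which left 16417 genes for APP/PS1 against NTG mice. Of the 7 genes, 6 passed and were above 1 CPM in all 14 mice; Fcgr4 did not pass and is given from a fit without this filter. The library of APP/PS1 mouse 16 stood apart: 10 genes of striatum summed to 2846 CPM there and to between 249.8 and 461.3 CPM in the other 13 mice. Results of the 6 tested genes in APP/PS1 against NTG mice are therefore also given without it. With CP2 against vehicle this was done for Fcgr1 only. Genes resembling ribosomal RNA (Yam1 and AY036118) took a share of the counts of 4.72% to 7.50% in NTG, 2.40% to 5.51% in APP/PS1 and 4.49% to 7.40% in CP2-treated mice, lowest in APP/PS1 mice 16 and 17 (2.40% and 2.68%). The defining microglial genes were present in every mouse, with 16 genes summing to between 552.4 and 1452 CPM, and 8 genes of cortical and hippocampal neurons summed to between 998.8 and 1439 CPM. Choroid plexus genes ranged widely within every group, from 26.34 to 1356 CPM. Neutrophil, NK and T cell, B and plasma cell, and mast cell lists had no gene past the filter, and 6 mast cell genes together stayed between 0.1029 and 0.5184 CPM.

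APP/PS1 mice were compared with NTG mice to see how the receptors differ between transgenic and littermate brain. Fcgr1, Fcgr3, Fcgr2b, Fcer1g and Syk rose, 5 of the 6 genes tested, where 4.34% of all genes tested were called higher (edgeR quasi-likelihood test, Benjamini-Hochberg adjusted p under 0.05). All 6 tested genes, and Fcgr4, had every APP/PS1 mouse above every NTG mouse, a separation that 6.13% of all genes tested showed in this direction. The median log2 fold change of the 6 genes was 1.41, against -0.0042 over all genes tested. In tissue RNA, more cells of a type cannot be told apart from more RNA per cell.

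Fcgr1, the high-affinity receptor, was at 3.33, 3.71, 3.11 and 3.52 CPM in the NTG mice. In APP/PS1 mice 16 to 20 it was at 6.27, 8.54, 9.29, 10.2 and 8.32 CPM. Mouse 16 was the lowest of its group and still above all NTG mice. Fcgr1 rose by 1.32 on the log2 scale (SE 0.14, edgeR adjusted p = 0.0005066), and by 1.41 (SE 0.10) without mouse 16.

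Fcgr3, the low-affinity activating receptor, was at 9.49, 10.1, 8.87 and 7.78 CPM in the NTG mice. It reached 19.5, 25.4, 25.8, 24.9 and 32.1 CPM in APP/PS1 mice 16 to 20. The highest value was that of mouse 20 and the lowest that of mouse 16. Fcgr3 rose by 1.498 on the log2 scale (SE 0.14, edgeR adjusted p = 0.0002419), and by 1.58 (SE 0.11) without mouse 16.

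Fcgr4, an activating receptor that binds IgG2a/c and IgG2b, had the lowest counts of the 7 genes. It had 8 to 21 counts (0.119 to 0.263 CPM) in the NTG mice, above the 3 counts taken as a floor, and 49 to 154 counts in APP/PS1 mice. The APP/PS1 values were 0.560, 1.34, 1.41, 1.23 and 1.40 CPM in mice 16 to 20, so that mouse 16 alone kept the gene below the filter. In the fit without a filter on low counts Fcgr4 rose 6.67-fold (log2 fold change 2.74, SE 0.33, edgeR adjusted p = 0.0005166), the largest fold change of the 7 genes.

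Fcgr2b, the inhibitory receptor, was at 6.07, 4.96, 4.53 and 5.55 CPM in the NTG mice. In APP/PS1 mice 16 to 20 it was at 11.6, 17.5, 22.7, 21.1 and 23.2 CPM. Mouse 16 had about the level of the lowest CP2-treated mice, and mouse 20 the highest level. Fcgr2b rose 3.64-fold (log2 fold change 1.86, SE 0.20, edgeR adjusted p = 0.0005854), and by 2.0 on the log2 scale (SE 0.12) without mouse 16.

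Fcer1g, the chain that carries the signal of the 3 activating receptors, was at 5.14, 4.12, 4.68 and 4.28 CPM in the NTG mice. It was at 12.7, 14.5, 20.7, 20.2 and 21.8 CPM in APP/PS1 mice 16 to 20. Mice 16 and 17 lay below the other APP/PS1 mice and well above every NTG mouse. Fcer1g rose 3.94-fold (log2 fold change 1.98, SE 0.17, edgeR adjusted p = 0.000207), and by 2.08 on the log2 scale (SE 0.13) without mouse 16.

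Syk, the kinase that docks on the γ chain, differed least. The NTG mice had 4.98, 3.81, 4.11 and 4.01 CPM and APP/PS1 mice 16 to 20 had 5.18, 6.47, 5.84, 9.74 and 7.51 CPM. NTG mouse 7 and APP/PS1 mouse 16 were nearly level, and mouse 19 was the highest. Syk rose by 0.72 on the log2 scale (SE 0.18, edgeR adjusted p = 0.04698). The call was lost without any of mice 7, 8, 9, 10, 17, 18, 19 or 20 (log2 fold changes of 0.56 to 0.81, adjusted p of 0.05418 to 0.1315) and was kept without mouse 16 (0.80, adjusted p = 0.01268).

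Fcrls was at 15.3, 20.97, 16.4 and 12.7 CPM in the NTG mice. APP/PS1 mice 16 to 20 had 26.6, 24.4, 25.8, 37.4 and 71.5 CPM. Mouse 20 was far above the other 4, and mouse 16, low for the other genes, was not the lowest here. The log2 fold change was 1.19 (SE 0.33), which missed the threshold (edgeR adjusted p = 0.06608). Without mouse 20 the value was 0.81 (SE 0.18, adjusted p = 0.03874) and without mouse 16 it was 1.29 (SE 0.32, adjusted p = 0.03547), so that leaving out either mouse brought Fcrls past the threshold.

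**Figure D1:**
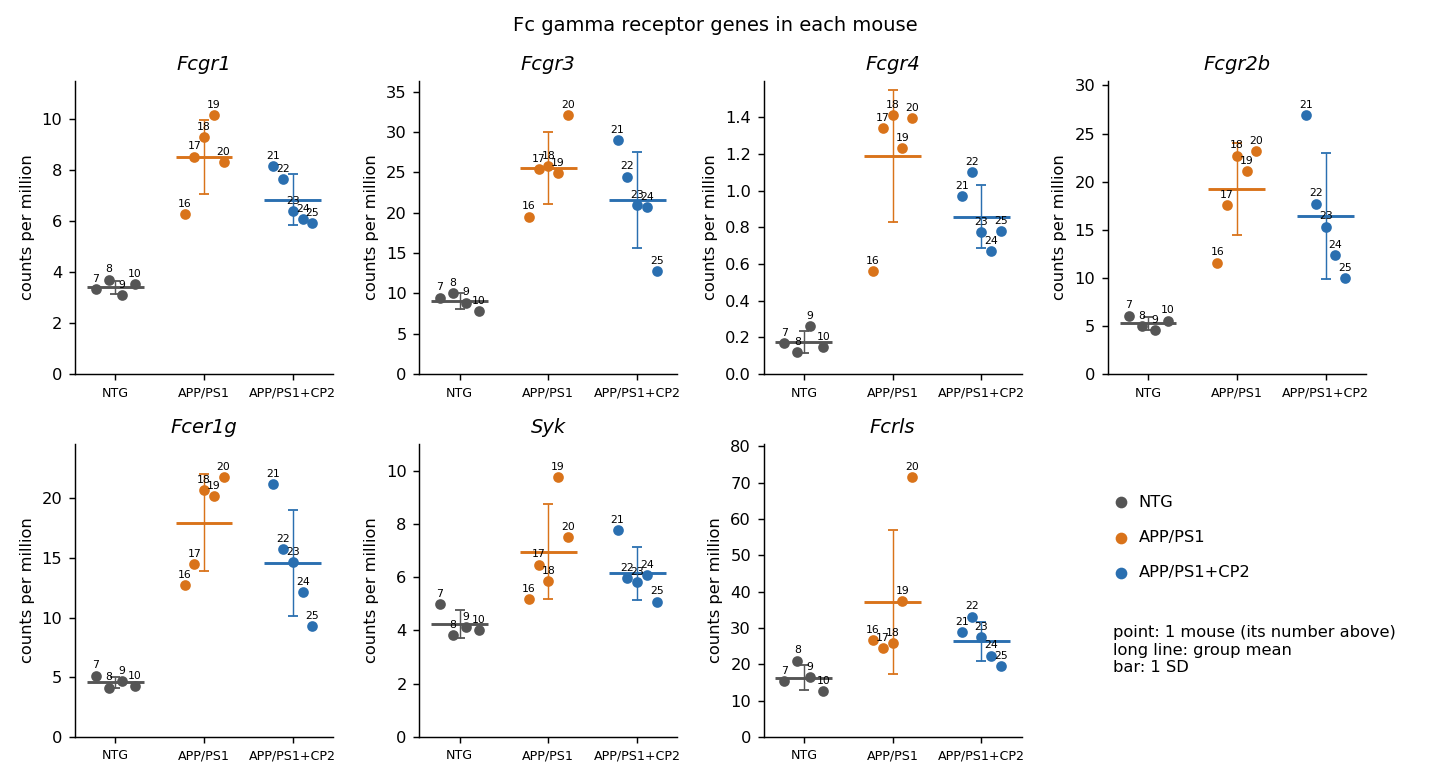
CPM (counts scaled to library size) of the 7 genes in each mouse, 1 panel per gene with its own axis from 0. Points are mice with their numbers, long lines are group means and bars are 1 SD (n = 4 NTG, 5 APP/PS1 and 5 APP/PS1+CP2 mice). All APP/PS1 mice lie above all NTG mice in every panel, with mouse 16 lowest of the APP/PS1 group in 6 of 7 panels and mouse 25 lowest of the CP2 group in 6 of 7.

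The drug was compared with its vehicle within the APP/PS1 genotype. None of the 6 genes tested was called, where 0.00609% of all genes tested, that is 1 of 16407, was called at all (edgeR, adjusted p under 0.05). All 6 fitted values were below 0, with a median log2 fold change of -0.28 against -0.0060 over all genes tested, of which 47.5% were above 0. At an unadjusted p under 0.05, 1 of the 6 genes was lower, where 3.66% of all genes tested were. DESeq2 also called none of the 6 at an adjusted p under 0.05. The authors' own threshold was an unadjusted p under 0.05. Of the 6 genes only Fcgr1 passed it in the DESeq2 fit (-0.32, SE 0.14, DESeq2 unadjusted p = 0.02433). With the ribosomal RNA share as a covariate all 6 values lay further below 0. They were -0.84 for Fcrls (SE 0.25, edgeR unadjusted p = 0.00632), -0.51 for Fcer1g (SE 0.23, unadjusted p = 0.04584) and -0.40 for Fcgr1 (SE 0.16, unadjusted p = 0.0273). Fcgr2b was at -0.41 (SE 0.29), Fcgr3 at -0.38 (SE 0.22) and Syk at -0.32 (SE 0.19). All 6 had an adjusted p of 0.9516. In this fit 727 of 16407 genes tested had an unadjusted p under 0.05, in either direction. The APP/PS1 mice are the same as in the comparison with NTG mice, so that a high or low mouse of that group moves both comparisons.

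The gene past the unadjusted threshold without the covariate was Fcgr1, at 8.18, 7.65, 6.40, 6.09 and 5.93 CPM in CP2-treated mice 21 to 25. The CP2-treated mice fell within or just below the range of the APP/PS1 mice, and mouse 16 of the vehicle group lay among the lowest 4 of the 10. Its log2 fold change was -0.32 (SE 0.13, edgeR unadjusted p = 0.0358, adjusted p = 0.744). Without mouse 16 it was -0.41 (SE 0.11, adjusted p = 0.4083), and without mouse 25 -0.27 (SE 0.14). Its unadjusted p was above 0.05 without any of mice 17, 18, 19, 20, 23, 24 or 25, reaching 0.09368. In all 10 alternatives that kept every mouse it was under 0.05, and none of them called Fcgr1 at the adjusted threshold.

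The other genes spread widely within the CP2 group. In CP2-treated mice 21 to 25 Fcgr3 was at 29.0, 24.5, 20.9, 20.7 and 12.8 CPM, with a log2 fold change of -0.25 (SE 0.19, edgeR adjusted p = 0.802). Fcgr2b was at 27.0, 17.7, 15.3, 12.4 and 10.001 CPM, with a log2 fold change of -0.23 (SE 0.26, edgeR adjusted p = 0.858). Mouse 21 had the highest Fcgr2b level of all 14 mice, and mouse 25 was the lowest of all transgenic mice for both genes. Without mouse 25 the values shrank to -0.11 for Fcgr3 and -0.10 for Fcgr2b. Without mouse 21 the Fcgr3 value was -0.38, further below 0.

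Fcer1g was at 21.2, 15.7, 14.6, 12.1 and 9.30 CPM in CP2-treated mice 21 to 25, with a log2 fold change of -0.30 (SE 0.21, edgeR adjusted p = 0.786). Syk was at 7.77, 5.95, 5.81, 6.08 and 5.08 CPM, with -0.18 (SE 0.17, edgeR adjusted p = 0.8266). Both again had mouse 21 as the highest and mouse 25 as the lowest of the CP2 group. Without mouse 19 the Syk value was -0.03, and without mouse 21 those of Fcer1g and Fcgr2b were -0.47 each. For Fcrls the mice had 28.9, 33.1, 27.4, 22.4 and 19.5 CPM and the log2 fold change was -0.50 (SE 0.29, edgeR adjusted p = 0.7497), which became -0.12 (SE 0.17) without APP/PS1 mouse 20. Fcgr4, in the fit without the filter, was at 0.969, 1.10, 0.776, 0.669 and 0.779 CPM, with a log2 fold change of -0.48 (SE 0.24, edgeR unadjusted p = 0.07007, adjusted p = 0.7779). Mouse 16, at 0.560 CPM, lay below all 5 CP2-treated mice, and the other 4 vehicle-treated mice lay above them.

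Against NTG mice, the CP2-treated mice had all 6 tested genes called higher, where 4.56% of all genes tested were, and 5 of the 6 did not overlap with NTG mice, where 6.41% of all genes tested lay wholly higher. Fcer1g was higher by 1.68 on the log2 scale (SE 0.20, edgeR adjusted p = 0.000879), Fcgr2b by 1.64 (SE 0.25, adjusted p = 0.003012), Fcgr3 by 1.26 (SE 0.19, adjusted p = 0.003076) and Fcgr1 by 1.01 (SE 0.12, adjusted p = 0.0006878). Fcrls differed by 0.69 (SE 0.17, adjusted p = 0.0369) with mouse 25 inside the NTG range, and Syk by 0.54 (SE 0.13, adjusted p = 0.03514) with no overlap. Fcgr4 differed by 2.27 in the fit without the filter (SE 0.27, adjusted p = 0.0002693). The Syk and Fcrls calls each survived the loss of a mouse in 3 of 9 fits. The NTG mice are those of the comparison with vehicle-treated APP/PS1 mice, and the difference between the transgenic groups was tested directly above.

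**Figure D2:**
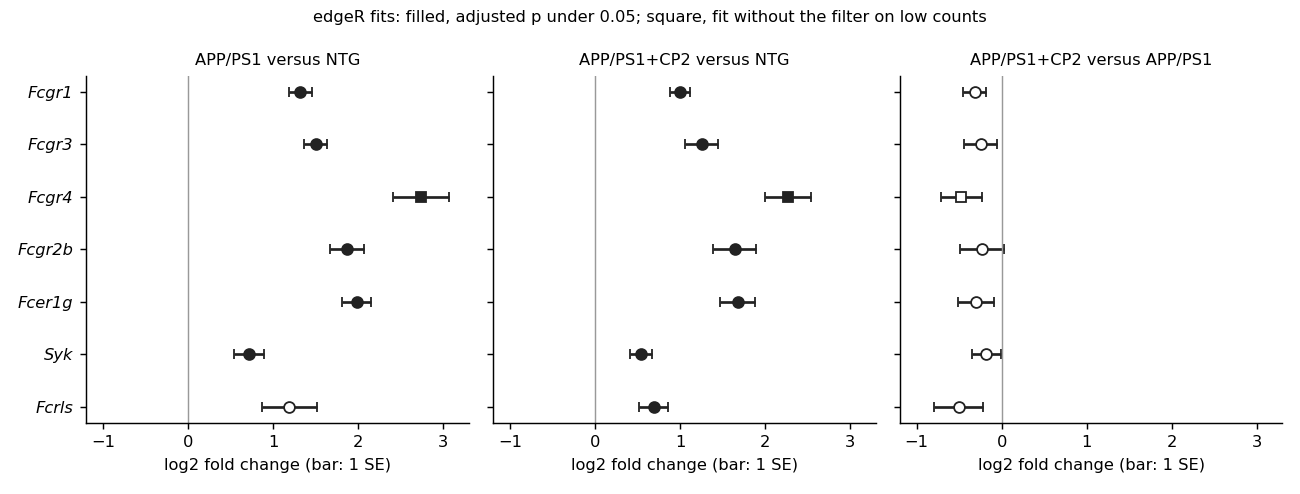
Log2 fold changes of the 7 genes (x axis) with bars of 1 SE in the 3 comparisons. Filled symbols passed the adjusted threshold, and the square is Fcgr4 from the fit without a filter on low counts. Both comparisons with NTG mice lie to the right of 0 for every gene, and the CP2 comparison lies left of 0 with open symbols.

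Levels were compared between genes by the authors' RPKM, which divides by gene length. In NTG mice the order ran from Fcrls (5.59 ± 1.002 RPKM, SD, n = 4) over Fcer1g (4.19 ± 0.465) and Fcgr3 (4.17 ± 0.348) to Fcgr1 (1.06 ± 0.0815), Fcgr2b (0.733 ± 0.110), Syk (0.363 ± 0.0496) and Fcgr4 (0.112 ± 0.0391). Only the neighbours among the first 3 genes overlapped in their ranges. In APP/PS1 mice Fcer1g stood first in the order (17.2 ± 3.69 RPKM, SD, n = 5), ahead of Fcrls (13.2 ± 6.60) and Fcgr3 (12.3 ± 1.995), while Fcgr2b (2.78 ± 0.681) and Fcgr1 (2.76 ± 0.482) were level and Fcgr4 (0.794 ± 0.244) and Syk (0.620 ± 0.149) overlapped. CP2-treated mice had Fcer1g at 13.8 ± 4.22, Fcgr3 at 10.3 ± 2.89, Fcrls at 9.31 ± 1.96, Fcgr2b at 2.36 ± 0.942, Fcgr1 at 2.19 ± 0.337, Fcgr4 at 0.566 ± 0.1196 and Syk at 0.543 ± 0.0896 RPKM. With the length of the principal transcript in place of the authors' gene length, an alternative chosen after seeing the data, Fcgr2b lay above Fcgr1 in every group, with means of 1.198 against 1.06 RPKM in NTG, 4.54 against 2.76 in APP/PS1 and 3.85 against 2.19 in CP2-treated mice, and Syk (1.08) lay above Fcgr4 in APP/PS1 mice.

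The 4 receptors summed to 6.08 ± 0.350 RPKM (SD, n = 4) in NTG, 18.6 ± 3.11 (n = 5) in APP/PS1 and 15.4 ± 4.16 (n = 5) in CP2-treated mice. Fcgr3 made up most of this sum in every group, with means of 68.6%, 66.2% and 66.5%. The mean share of Fcgr4 was 1.86% in NTG, 4.17% in APP/PS1 and 3.801% in CP2-treated mice, and that of the inhibitory Fcgr2b was 12.1%, 14.8% and 15.0%. The shares of Fcgr4 overlapped between NTG and APP/PS1 mice, and those of Fcgr2b did so as well.

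The balance of activating to inhibitory receptor RNA was described within each mouse as a log2 ratio of RPKM, with no test. Fcgr1 to Fcgr2b was 0.54 ± 0.19 (SD, n = 4) in NTG mice, 0.01 ± 0.23 (n = 5) in APP/PS1 mice and -0.03 ± 0.36 (n = 5) in CP2-treated mice. The APP/PS1 mice (-0.32 to 0.27) lay just below the NTG mice (0.29 to 0.74), mice 16 and 7 being nearly level, and CP2-treated mouse 25 (0.41) reached into the NTG range. The sign of this ratio depends on the length used: with the principal transcript the means were -0.17, -0.70 and -0.74, while the differences between groups do not depend on it. Fcgr3 to Fcgr2b was 2.52 ± 0.26, 2.17 ± 0.23 and 2.16 ± 0.23 in the same order, and Fcgr4 to Fcgr2b was -2.76 ± 0.58, -1.84 ± 0.24 and -1.997 ± 0.41, with overlap in each. Fcer1g to the sum of the 3 activating Fcγ receptors was -0.36 ± 0.19 in NTG, 0.10 ± 0.19 in APP/PS1 and 0.07 ± 0.12 in CP2-treated mice. Other receptors that use the chain were not part of this sum. All transgenic mice were above all NTG mice in the ratio of Fcer1g to this sum, with APP/PS1 mouse 17 (-0.20) next to NTG mouse 7 (-0.23). How often ratios of other genes separate the groups in this way was not counted.

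**Figure D3:**
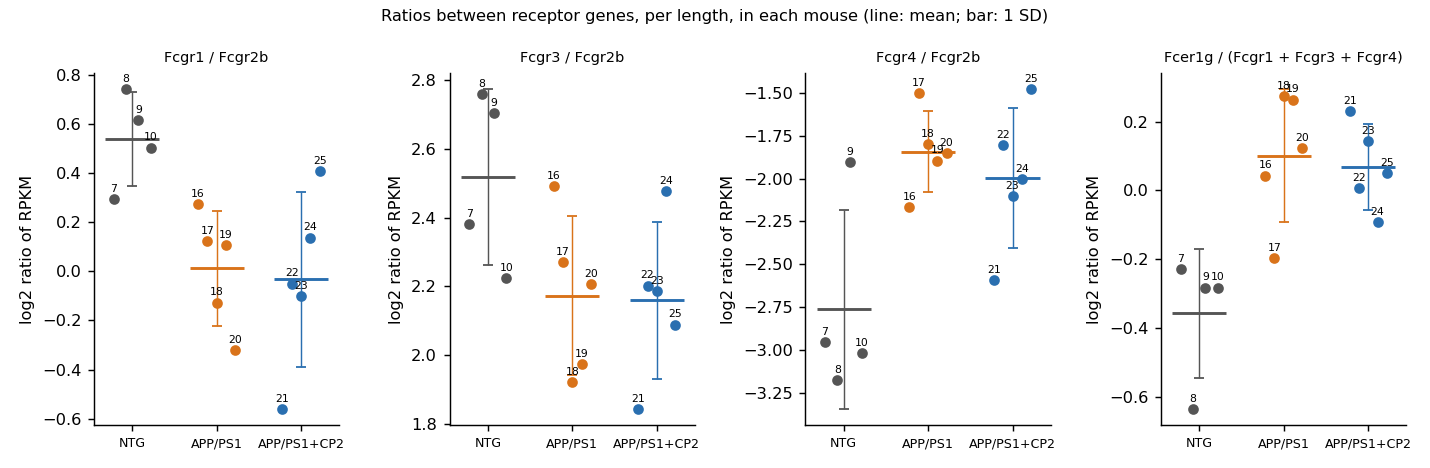
Log2 ratios of RPKM within each mouse (y axis, a separate scale per panel) for Fcgr1, Fcgr3 and Fcgr4 to Fcgr2b and for Fcer1g to the sum of the 3 activating receptors. Points are mice with their numbers, lines are means and bars 1 SD. Fcgr1 to Fcgr2b is lower in APP/PS1 (-0.32 to 0.27) than in NTG mice (0.29 to 0.74), and Fcer1g to the 3 activating receptors is higher. In both panels the nearest mice of these groups are almost level.

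Microglial genes moved in the same mice. Of 16 microglial genes tested, 13 rose in APP/PS1 mice against NTG mice (edgeR, adjusted p under 0.05), where 4.34% of all genes tested were called higher. The median log2 fold change of the 16 was 1.01. Their summed level was 552.4 to 567.2 CPM in NTG, 992.8 to 1452 CPM in APP/PS1 and 876.4 to 1242 CPM in CP2-treated mice, and none of the 16 was at 0. With CP2 all 16 values were below 0, where 47.5% of all genes tested were above 0. None of the 16 was called and the median was -0.16. The part of these genes in the receptor results was described by subtracting, in each mouse, their mean log2 CPM from that of each receptor gene.

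Relative to the microglial list, APP/PS1 mice exceeded NTG mice by 1.63 on the log2 scale for Fcgr4, 0.99 for Fcer1g, 0.87 for Fcgr2b and 0.52 for Fcgr3, all without overlap between the groups, a separation in this direction that 0.7% of all genes tested showed on this scale. In CP2-treated mice Fcgr4, Fcer1g and Fcgr2b also lay above NTG mice without overlap, where 0.621% of all genes tested did, and Fcgr3 overlapped with them. Between APP/PS1 and NTG mice the difference was 0.34 for Fcgr1, 0.12 for Fcrls and -0.28 for Syk, each with overlap. The NTG mean for Fcer1g, for example, was -2.55 ± 0.13 (SD, n = 4) and the APP/PS1 mean -1.57 ± 0.22 (n = 5). With CP2 against vehicle the relative values differed by between -0.23 (Fcgr4) and 0.02 (Syk). Mouse 16 had the lowest mean log2 CPM of the microglial list among the APP/PS1 mice (5.46) and mouse 25 the lowest among the CP2-treated mice (5.32), the same mice that were lowest for 6 of the 7 genes.

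Markers of other cells were also followed. Of 4 border macrophage genes and 3 monocyte and dendritic cell genes tested, none was called, and their lists summed to 14.14 to 19.05 and 25.76 to 33.58 CPM in NTG mice and to 18.81 to 24.84 and 22.37 to 31.46 CPM in APP/PS1 mice. Red cell genes were called higher for 2 of 5, where 4.34% of all genes tested were. Their summed levels were 82.54 to 151.4 CPM in NTG and 113.2 to 472.4 CPM in APP/PS1 mice, the highest in mouse 20. Neutrophil genes summed to 1.039 to 10.21 CPM in NTG, 0.9536 to 1.993 CPM in APP/PS1 and 0.5214 to 2.406 CPM in CP2-treated mice. NK and T cell genes summed to 0.4383 to 3.307, 1.724 to 2.73 and 0.6552 to 1.546 CPM in the same order. The part of these lists in the receptor results was not tested.

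**Figure D4:**
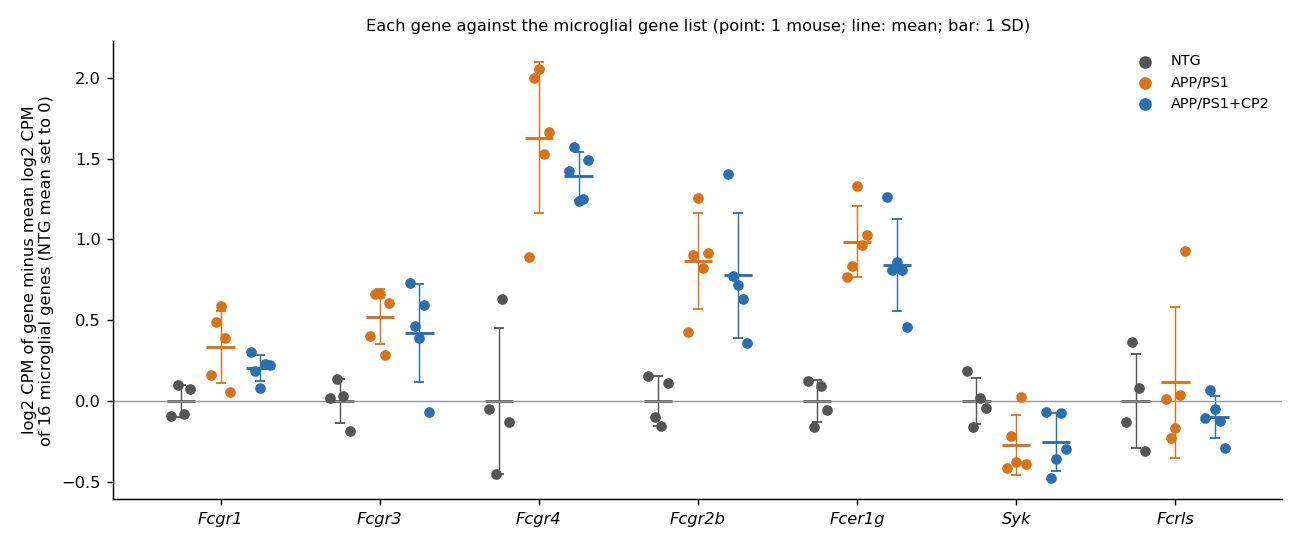
Log2 CPM of each gene minus the mean log2 CPM of 16 microglial genes in the same mouse (y axis, with the NTG mean of each gene set to 0). Points are mice, lines are means and bars 1 SD (n = 4, 5 and 5). APP/PS1 means lie 1.63 (Fcgr4), 0.99 (Fcer1g), 0.87 (Fcgr2b) and 0.52 (Fcgr3) above NTG without overlap, and the Fcgr1, Syk and Fcrls points overlap with NTG.

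Immunoglobulin chains, not all of them of IgG, and partners of the receptors were taken from lists of the pathway. Of 13 immunoglobulin chain genes, 11 were matched and 2 tested. Ighm, the heavy chain of IgM and not of IgG, was at 9.33 to 11.4 CPM in NTG and 18.5 to 31.5 CPM in APP/PS1 mice. It rose by 1.41 on the log2 scale (SE 0.15, edgeR adjusted p = 0.0005066). Ighg2c, the heavy chain of IgG2c, was the only IgG chain tested. It was at 0.852 to 1.64 CPM in NTG and 1.88 to 5.42 CPM in APP/PS1 mice, without overlap. Because NTG values reached below 1 CPM, Ighg2c passed the filter through its higher group alone. This separation and the fold change of Ighg2c are therefore not independent of the filter and carry no weight. Its log2 fold change of 1.26 (SE 0.32) was not called (edgeR adjusted p = 0.05154). With CP2 the log2 fold changes were -0.23 (SE 0.13, adjusted p = 0.7571) for Ighm and -0.20 (SE 0.38, adjusted p = 0.9134) for Ighg2c.

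Antibody chains were unevenly spread over mice. The κ light chain gene Igkc was at 5.92 CPM in mouse 16, 10.5 in mouse 19 and 10.1 in mouse 21, and at 0.376 to 2.42 CPM in the other 11 mice. Ighg2b was at 6.00 CPM in mouse 21 and at most 2.29 CPM elsewhere. Of the 3 mice high for Igkc, mouse 16 was the lowest of its group for 6 of the 7 genes, mouse 19 the highest of its group for Fcgr1 and Syk, and mouse 21 the highest of its group for 5 of the 7. The ε heavy chain gene Ighe had 0 counts in all 14 mice.

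Among 12 other Fc receptor genes only Fcgrt, the neonatal receptor that recycles IgG, and Trim21, a cytosolic IgG receptor, were tested. Neither was called in APP/PS1 against NTG mice, with log2 fold changes of 0.26 (SE 0.10, edgeR adjusted p = 0.2055) for Fcgrt and 0.60 (SE 0.16, adjusted p = 0.06139) for Trim21. With CP2 they were -0.10 (adjusted p = 0.8291) and -0.18 (adjusted p = 0.8127). In 4 of 19 alternative fits, DESeq2 and the fit without mouse 16 among them, 1 gene of the list was called higher.

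Other ITAM receptors and chains signal to Syk or, as the T cell chains do, to the related kinase Zap70. Of 18 genes 8 were tested, and 7 of the 8 rose in APP/PS1 mice (edgeR, adjusted p under 0.05), where 4.34% of all genes tested were called higher. The median log2 fold change of the 8 was 1.45. Trem2, a lipid receptor of microglia, rose by 2.46 on the log2 scale (SE 0.18, adjusted p = 0.0001193), and its chain Tyrobp, the DAP12 adaptor, by 2.12 (SE 0.16, adjusted p = 0.0001193). Itgb2, the common β2 chain of the complement receptors, rose by 1.80 (SE 0.15, adjusted p = 0.0001588) and Siglech by 1.11 (SE 0.09, adjusted p = 0.0001391). Siglech and Itgam, another of the 8, also belong to the microglial list. The gene of the 8 that did not pass was Cd247, a T cell receptor chain, at -0.14 (SE 0.09, edgeR adjusted p = 0.4557), named after its value was seen. With CP2 none was called, the smallest p being those of Clec5a (-0.46, SE 0.24, adjusted p = 0.7488) and Trem2 (-0.32, SE 0.17, adjusted p = 0.7488).

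Src-family kinases, which phosphorylate the ITAM, were tested for 6 of 8 genes. Of the 6, 2 rose, where 4.34% of all genes tested were called higher, and none was called lower. The median log2 fold change of the 6 was 0.18. Lyn, a kinase of myeloid and B cells, rose by 0.94 on the log2 scale (SE 0.19, edgeR adjusted p = 0.01611). With CP2 Src was at 0.14 (SE 0.05, edgeR unadjusted p = 0.01667, adjusted p = 0.744) and Lyn at -0.29 (SE 0.18, adjusted p = 0.7583).

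Of 40 adaptors and effectors downstream of Syk, 39 were tested and 21 rose in APP/PS1 mice, where 4.34% of all genes tested were called higher. The median log2 fold change of the 39 was 0.92. None was called lower, but 1 was in 7 of 19 alternative fits, and Vav3 was at -0.67 (SE 0.17, edgeR adjusted p = 0.05181). The 21 that rose included Nckap1l, the haematopoietic subunit of the WAVE complex that builds actin at the phagocytic cup (1.21, SE 0.10, edgeR adjusted p = 0.0001344), and the kinase Tec (1.23, SE 0.12, adjusted p = 0.0002936). The NADPH oxidase subunit Ncf1, or p47phox, rose as well (1.39, SE 0.13, edgeR adjusted p = 0.0002419). With CP2 none of the 39 was called. At an unadjusted p under 0.05, 6 were lower and 1 higher, where 3.66% and 2.88% of all genes tested were, with Ncf1 at -0.43 (SE 0.14, edgeR unadjusted p = 0.01094, adjusted p = 0.744) and the exchange factor Vav3 at 0.44 (SE 0.13, edgeR unadjusted p = 0.006317, adjusted p = 0.744).

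Inhibitors of ITAM signalling rose beside them for 9 of 17 genes tested, and 1 fell. Over all genes tested, 4.34% were called higher and 1.34% lower. The median log2 fold change of the 17 was 0.31. Cd22, a sialic acid receptor with inhibitory motifs, rose by 2.79 on the log2 scale (SE 0.32, edgeR adjusted p = 0.0007149), and Lair1, an inhibitory collagen receptor, by 1.10 (SE 0.13, adjusted p = 0.0009701). The phosphatases that such motifs recruit rose too, Ptpn6 (SHP-1) by 1.64 (SE 0.18, adjusted p = 0.0005902) and Inpp5d (SHIP-1), the partner of FcγRIIB, by 1.18 (SE 0.14, adjusted p = 0.001085). Ubash3b, a phosphatase that acts on Syk, fell by 0.30 (SE 0.06, adjusted p = 0.01619). With CP2 none was called, with Cd22 at -0.44 (SE 0.23, adjusted p = 0.7488) and Ptpn6 at -0.28 (SE 0.17, adjusted p = 0.7571).

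**Figure D5:**
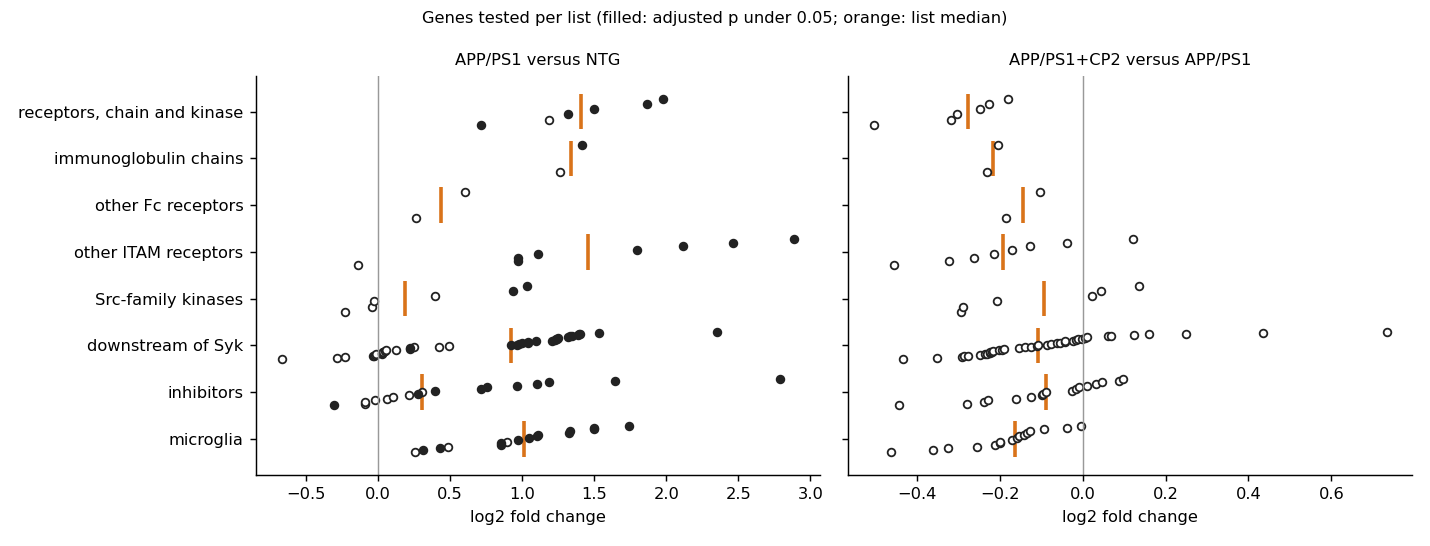
Log2 fold changes (x axis) of every gene tested in 8 lists (rows), for APP/PS1 against NTG mice (left) and for CP2 against vehicle in APP/PS1 mice (right). Filled points passed the adjusted threshold and orange lines are list medians. Many points are filled in the left panel, for example 21 of 39 downstream of Syk, and none in the right panel. Over all genes tested in the left comparison, 4.34% were called higher and 1.34% lower.

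Likeness of pattern was measured as the mean absolute difference between the centred log2 CPM values of a pair of genes over the 14 mice, against 16521 other genes, so that smaller is more alike. Fcgr2b and Fcer1g were each other's most similar gene (0.12). Fcer1g was next most like Ptpn6 (0.15) and Gpr84 (0.16), and Fcgr2b most like Ggta1 and Naip2 (both 0.18). Fcgr3 was most like Cd37 and Ptpn6 (0.14 each) and Ctsz (0.15). Fcgr1 was most like Cd9, Uba7 and Pld4 (0.09 each), Fcgr4 like Osmr (0.24), Trem2 and Cd22 (0.25 each), Syk like Cmtm3 (0.10), Tgfbr1 and Mfng (0.11 each), and Fcrls like Tnfaip8l2 (0.20), Rnase4 and Ikzf1 (0.21 each). For Syk, Fcgr1 was the nearest of the other 6 genes and came at rank 857. All these values share the 14 libraries and carry no test.

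The genes between Fcgr2b and Fcer1g on chromosome 1 gave the local background. The stretch held 13 other genes, of which 5 were tested (1700009P17Rik, Sdhc, Pcp4l1, Nr1i3 and Tomm40l) and none was called in APP/PS1 against NTG mice, their log2 fold changes running from -0.12 to 0.71. The 3 small genes that overlap Fcgr3, Fcgr4 or Fcgr2b had at most 4 counts in any mouse. Fcgr2b and Fcgr3 are related in sequence, with a longest identical run of 129 bases between their annotated transcripts. Of the windows of 101 bases, the read length, 2.58% of those of Fcgr3 and 1.09% of those of Fcgr2b were found in both genes, and none was shared by any other pair of the 4 receptors, so that part of the counts of these 2 genes is uncertain.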

How the data were processed

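Libraries were made with the TruSeq RNA Library Prep Kit v2 and sequenced in paired ends. The authors aligned reads with TopHat2 to mm10 and deposited counts per Ensembl gene from FeatureCounts, run with the -O option, so that a read overlapping several genes was counted on each. The aligner version and the strand setting are not given in the sources used here. The deposited RPKM values were the authors' counts per kilobase of their length column, scaled to a library total larger than the summed gene counts. The labels name each library as a separate mouse.

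From the counts, edgeR 4.0.16 (R 4.3.3) was run with TMM factors and the quasi-likelihood test, separately for each pair of groups, on genes above 1 CPM in all mice of either group, and p-values were adjusted over all genes tested by the Benjamini-Hochberg method (threshold 0.05). Log2 CPM used a prior count of 2. Scripts were checked on simulated data. Alternatives were DESeq2 1.42.0, limma 3.58.1 (voom, and log2 of RPKM plus 0.1 or 1), other normalization factors and filters, all 3 groups in one fit, the ribosomal RNA share as a covariate, and leaving out each mouse. The principal transcript length and the short PU.1 letters were added after seeing the data. Fits without mouse 16, in which Fcgr4 passed the filter through its higher group alone, were run and are not used for that gene. The genes and lists were chosen with earlier results of these data known. Beside the 7 genes, each pathway list named its 4 higher and 2 lower called genes of smallest p and the 2 of smallest p with CP2, and the 3 genes most alike were named for each of the 7. Some genes that this rule names are not reported here. List genes were matched by gene ID, which left 3 symbols (Iglc1, Iglc3 and Lilrb4a) out. No replicate libraries were alike within sampling noise. Figures were drawn with matplotlib 3.10.9.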

Additional observations from a re-analysis of the deposited data

Results flagged for a closer look

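Fcgr4 in APP/PS1 mouse 16 lay apart from the other 4 mice of its group. It was at 0.5602 CPM against 1.233 CPM in the nearest mouse, a gap that was 0.851 of the group's whole range, above Dixon's critical value of 0.71 for 5 samples. Of 21 groups of values examined (7 genes in 3 groups) this was the only one, and chance alone flags about 1 in 20. The same library held the high level of striatal genes (2846 CPM summed), and the part of this in the low Fcgr4 value was not tested.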

How the results depend on the processing

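Over 348 alternative values of the 6 tested genes, none reversed, 315 kept their side of the threshold, 26 lost and 7 gained a call. The calls of Fcgr1, Fcgr3, Fcgr2b and Fcer1g against NTG mice held in all 9 fits without 1 mouse and all 10 other alternatives, in both transgenic groups. For APP/PS1 against NTG mice, the Syk call held in 1 of 9 fits without 1 mouse and in 9 of 10 others, and Fcrls was called in 2 of 9 and 5 of 10. For CP2-treated against NTG mice, Syk held in 3 of 9 and 6 of 10, and Fcrls in 3 of 9 and 9 of 10. The number of the 6 tested genes called higher in APP/PS1 mice ran from 4 to 6 without 1 mouse. The inhibitors called higher fell from 9 to 5 without NTG mouse 9, and the Src-family kinases from 2 to 1 without NTG mouse 8, 9 or 10. The call of Ubash3b was lost without NTG mouse 8, with the ribosomal RNA covariate and in both RPKM fits. The immunoglobulin chains called went from 1 to 2 in 7 of 19 alternatives (without APP/PS1 mouse 18 and in 6 other settings), the other Fc receptors from 0 to 1 in 4 of 19 (without mouse 16 and in 3 other settings), and the genes downstream of Syk called lower from 0 to 1 in 7 of 19 (without mouse 9, 16 or 17 and in 4 other settings). DESeq2 called 1667 genes and limma-voom 1563 for APP/PS1 against NTG mice, against 932 with edgeR, while leaving out a mouse gave 578 to 1474. For CP2 against vehicle DESeq2 called 23 genes and edgeR 1, and for CP2-treated against NTG mice DESeq2 called 1670 and edgeR 989. The causes were not tested. Fcgr4, with 8 to 21 counts in NTG mice, is the gene most limited by depth. No paired analysis was made, because each library is a separate mouse and the sample information used here gives no litter or cage. A part of litter or cage in the results was not tested.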
